A study of Danio rerio with 12 samples.

Results

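Otoliths are the calcium carbonate stones of the fish inner ear that sense gravity and sound. Secreted proteins of the otic epithelium seed, tether and shape the growing crystal, while channels and transporters set the acid, calcium and carbonate of the surrounding endolymph. The genes described here are 8 that carry this process: the matrix genes stm (starmaker), otomp, otol1a, otol1b, oc90 and sparc, the tethering gene tecta and the proton channel gene otop1. They were found by gene symbol in a table of 35497 entries from 30628 gene identifiers, where each entry is 1 transcript class of 1 identifier. All 8 genes were present, as 10 entries, because oc90 had 2 identifiers and sparc had 2 transcript classes. The channel gene is written OTOP1 in the table and was matched without regard to case.

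RNA from the whole body of zebrafish was sequenced in 4 groups of 3 libraries, all sampled at 48 h. The groups were BaP (benzo[a]pyrene, a combustion product that binds the Ah receptor), diclofenac (an anti-inflammatory drug that inhibits cyclooxygenases), the Mixture of both, and Control. The labels call the 3 libraries of a group independent replicates. The sources used here give no dose, age or strain. Single libraries were not analysed here. The authors' deposited table holds, for each treatment, the log2 fold change against Control, its likelihood ratio and its p-value. Each error below is a standard error (SE), or a 95% interval, implied by that fold change and its ratio. The depth of each library is unknown from the table, and the labels state 40000000 to 80000000 reads. Average CPM, a read count scaled to library size, says how much signal an entry rests on. It is not scaled to transcript length, so it does not rank the genes. Calls used Benjamini-Hochberg adjustment at a threshold of 0.05, taken across the 21622 entries whose average reached 1 CPM. Of the 10 otolith entries 9 met that average and 1, otol1a, did not.

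The members were chosen by gene name around starmaker, which was itself selected on its measured log2 fold change and p-value with BaP. The BaP comparison is therefore given as a description, with no test. Both other comparisons with Control share their Control libraries with it, and the members were chosen with all of them known.

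**Figure D1:**
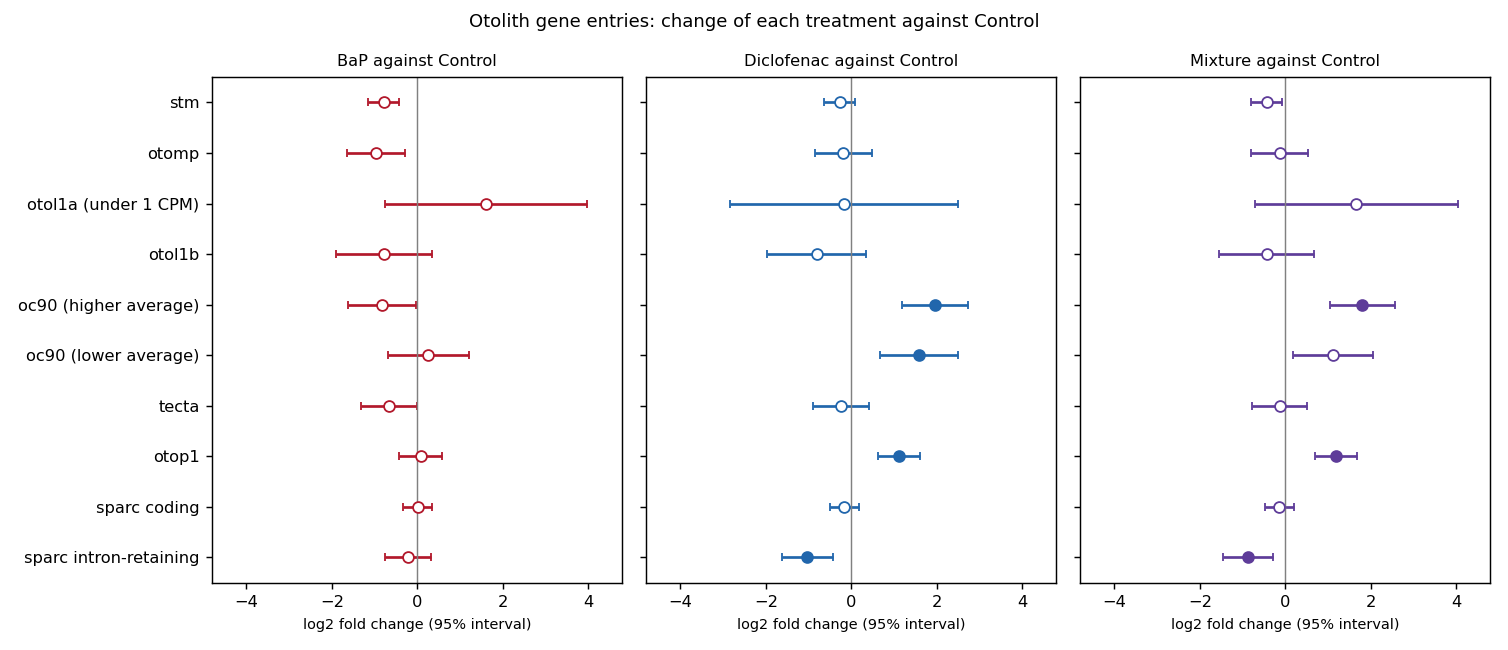
Log2 fold change of each otolith gene entry (rows) in BaP, Diclofenac and Mixture, each against Control. Points are the authors' deposited values, bars are implied 95% intervals, and filled points passed an adjusted p of 0.05 (no test is shown for BaP). The points of stm, otomp, tecta and otol1b lie below 0 in all 3 panels, while oc90 and otop1 lie above 1 with Diclofenac and with the Mixture.

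With BaP, stm, otomp, tecta and the more abundant oc90 entry had log2 fold changes below 0 with intervals that left out 0. These intervals are not adjusted for the number of entries, and otomp, tecta and this oc90 entry did not pass adjustment with BaP. For stm, selected on this comparison, no test is given. That selection favours a large change, so an interval leaving out 0 was fixed in advance for stm. The intervals of otol1a, otol1b, otop1, the second oc90 entry and both sparc entries included 0. Starmaker is a very acidic, intrinsically disordered protein of the otolith matrix, and zebrafish with little of it form star-shaped otoliths. Its entry (ENSDARG00000035694) averaged 131 CPM. In BaP fish its level was 57.8% of that in Control fish, a log2 fold change of -0.79 in the authors' deposited table, with an interval of -1.15 to -0.43. By its likelihood ratio of 18.3 it ranked at 27 of the 21622 entries. Since stm was selected on this comparison, a high rank was fixed in advance.

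The otolith matrix protein gene otomp (ENSDARG00000040306, average 14.7 CPM) encodes a protein needed for otolith growth in zebrafish. In BaP fish it stood at 51.4% of Control, a log2 fold change of -0.96 in the authors' deposited table (interval -1.64 to -0.28). Its point estimate was lower than that of stm, but its interval was wider and covered the whole of the stm interval. Tectorin alpha, encoded by tecta (ENSDARG00000059558, average 4.40 CPM), is an extracellular matrix protein that tethers otoliths to the sensory epithelium. Its log2 fold change with BaP was -0.67 in the authors' deposited table (interval -1.32 to -0.01).

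Otoconin 90, encoded by oc90, is a matrix protein related to secreted phospholipase A2 and acts early, when otoliths are seeded. The more abundant of its 2 entries (ENSDARG00000001721, average 9.10 CPM) had a log2 fold change of -0.82 with BaP in the authors' deposited table (interval -1.61 to -0.03). The less abundant entry (ENSDARG00000111394, average 1.95 CPM) had 0.26 in the authors' deposited table (interval -0.70 to 1.21). The 2 entries carry the same symbol, so how reads were divided between them is uncertain.

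Otolin is a collagen-like protein of the otolith matrix, and zebrafish have the paralogs otol1a and otol1b. For otol1b (ENSDARG00000058960, average 1.13 CPM) the log2 fold change with BaP was -0.78 in the authors' deposited table, close to that of stm, with an interval of -1.90 to 0.34 that includes 0. For otol1a (ENSDARG00000001771, average 0.352 CPM) the interval with BaP ran from -0.76 to 3.98, so these data do not resolve a change of this paralog. Its log2 fold changes in the authors' deposited table were 1.61 with BaP, -0.17 with Diclofenac and 1.66 with the Mixture.

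The other members lay nearer to Control. Otopetrin 1, the otop1 product (ENSDARG00000021566, average 9.38 CPM), is a proton channel without which zebrafish do not form otoliths. With BaP its log2 fold change was 0.08 in the authors' deposited table (interval -0.42 to 0.57). The gene sparc (ENSDARG00000019353) encodes osteonectin, a glycoprotein that binds calcium and collagen and is made in bone and skin as well as deposited in otoliths. Its protein-coding entry, at an average of 839 CPM, had 0.01 with BaP in the authors' deposited table (interval -0.32 to 0.35). Its intron-retaining entry, at 2.54 CPM, had -0.22 in the authors' deposited table (interval -0.77 to 0.32).

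Over the 9 entries averaging at least 1 CPM the median log2 change with BaP was -0.67, and 6 lay below 0. Over all 21622 such entries the median was 0.02, with quartiles of -0.14 and 0.16, and 47.3% lay below 0. Over all entries tested 32, or 0.148%, were called with BaP, and no call is given for stm. Since stm was selected on this comparison, nothing is read from the median of the 9 entries, which include it. In RNA from the whole body, fewer cells of a type and less RNA per cell cannot be told apart.

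With Diclofenac, oc90 and otop1 rose, and the intron-retaining entry of sparc fell. The oc90 entry with the higher average had 1.97 in the authors' deposited table, a 3.91-fold rise with bounds of 2.29 and 6.66 (likelihood ratio test, adjusted p = 1.83e-05). The second oc90 entry rose by 1.58 in the authors' deposited table (interval 0.67 to 2.50, adjusted p = 0.00721), a call lost under Benjamini-Yekutieli adjustment (adjusted p = 0.0761). Both oc90 identifiers thus lay above Control with this drug, but as they carry the same symbol they are not taken as 2 separate results.

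The channel gene otop1 rose by 1.12 in the authors' deposited table, 2.17-fold, with a fold interval of 1.55 to 3.04 (adjusted p = 1.66e-04). The intron-retaining sparc entry fell, at -1.03 in the authors' deposited table (interval -1.63 to -0.43, adjusted p = 0.00787), and this call was lost likewise (Benjamini-Yekutieli adjusted p = 0.0831). The protein-coding sparc entry had -0.16 in the authors' deposited table (interval -0.50 to 0.17) and did not pass (adjusted p = 0.594). The sparc change thus lay in an entry averaging 2.54 CPM, beside 839 CPM for the coding entry.

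Starmaker had a log2 fold change of -0.27 with Diclofenac in the authors' deposited table, which did not pass (interval -0.63 to 0.09, adjusted p = 0.349). Its level was 83.0% of Control. The entries of otomp, tecta and otol1b had -0.18, -0.25 and -0.81 in the authors' deposited table, and none of the 3 passed (adjusted p = 0.788, 0.687 and 0.385). In all, 4 of the 9 entries were called with Diclofenac, 3 higher (both oc90 entries and otop1) and 1 lower. Of all entries tested 16.2% were called, 8.52% higher and 7.64% lower. The median over the 9 was -0.18, beside -0.01 over all entries tested.

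With the Mixture the same pair of genes rose. The more abundant oc90 entry rose by 1.80 in the authors' deposited table, 3.49-fold (fold interval 2.05 to 5.94, adjusted p = 1.28e-04). The second oc90 entry had 1.12 in the authors' deposited table (interval 0.19 to 2.04) and did not pass (adjusted p = 0.0941). The channel gene otop1 rose by 1.18 in the authors' deposited table, 2.27-fold (fold interval 1.62 to 3.18, adjusted p = 5.56e-05).

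The intron-retaining sparc entry fell again, with -0.87 in the authors' deposited table (interval -1.46 to -0.28, adjusted p = 0.0302), a call that Benjamini-Yekutieli adjustment ended (adjusted p = 0.319). The authors' deposited table gave the coding entry -0.14, which did not pass (adjusted p = 0.658). Starmaker stood at 73.9% of Control with the Mixture. Its log2 fold change was -0.44 in the authors' deposited table (interval -0.80 to -0.08), which did not pass over all entries tested (adjusted p = 0.0922, unadjusted p = 0.0177). The entries of otomp and tecta both had -0.13 and that of otol1b -0.44 in the authors' deposited table, and none passed (adjusted p = 0.861, 0.856 and 0.688). Altogether 3 of the 9 entries were called, 2 higher and 1 lower, where 14.8% of all entries tested were called, 8.12% higher and 6.67% lower. The median over the 9 was -0.13, beside 0.02 over all entries tested.

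**Figure D2:**
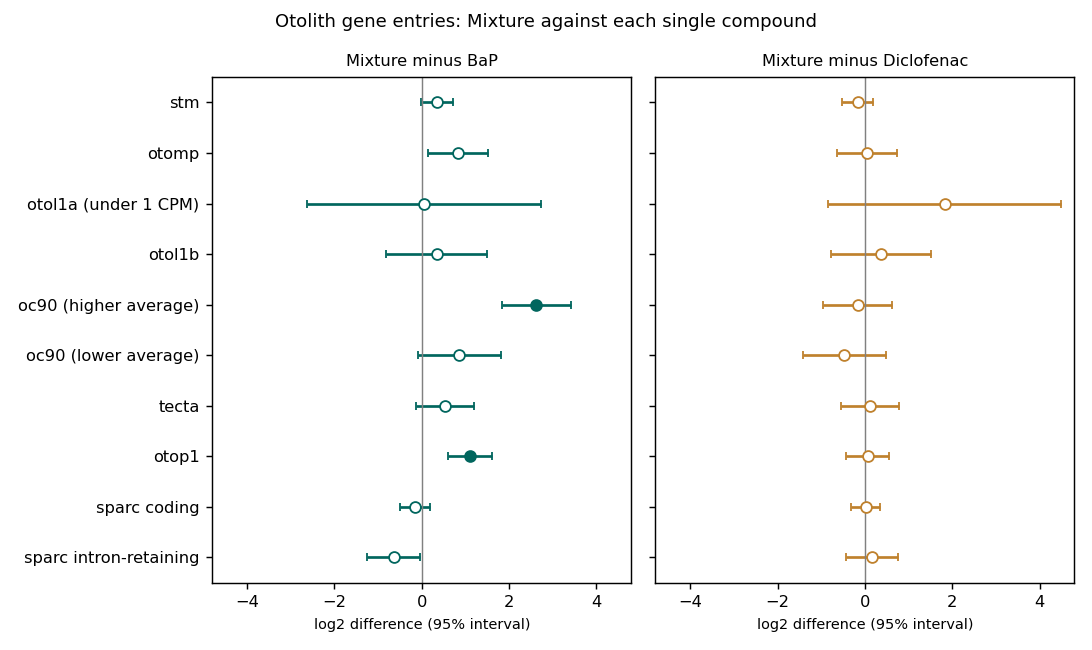
Log2 difference between the Mixture and each single compound for each otolith gene entry (rows). Points are differences of the authors' deposited fold changes, bars are 95% intervals from the implied variances, and filled points passed an adjusted p of 0.05. The more abundant oc90 entry and otop1 differ from BaP by 2.62 and 1.10, and no entry passed against Diclofenac.

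The Mixture against Diclofenac alone shows what the addition of BaP did, provided that the doses in the Mixture were those of the single treatments. The size of this difference uses neither the BaP nor the Control libraries. Its SE, interval and p do draw on comparisons with Control: for stm the largest implied variance, which was used, is that of BaP against Control. Starmaker in the Mixture differed from Diclofenac by -0.17 ± 0.18 (log2, implied SE), with an interval of -0.53 to 0.20, and did not pass (approximate Wald test, adjusted p = 0.911, unadjusted p = 0.366). The interval includes both no change and a level of 69.3% of that with Diclofenac, and it overlaps the interval of stm with BaP alone, -1.15 to -0.43.

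None of the other otolith entries tested passed. The difference was 0.05 ± 0.35 for otomp, 0.12 ± 0.34 for tecta and 0.37 ± 0.59 for otol1b. For otol1a, under 1 CPM and not tested, it was 1.82, with an interval of -0.85 to 4.50. For the oc90 entries it was -0.16 ± 0.41 and -0.47 ± 0.49, and for otop1 0.07 ± 0.25. Of the 9 entries, 0 were called by the Wald test and 0 had an unadjusted p under 0.05, where 0.365% of all entries tested were called. For the entries of tecta, otol1b, the second oc90 and intron-retaining sparc, all averaging under 5 CPM, the intervals reached 0.77, 1.52, -1.42 and 0.76 log2 units.

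The Mixture against BaP alone shows what the addition of diclofenac did, under the same assumption on dose. In the Mixture oc90 and otop1 were higher than in BaP. The more abundant oc90 entry stood at 1.80 with the Mixture and at -0.82 with BaP in the authors' deposited table. The difference was 2.62 ± 0.41, or 6.15-fold (approximate Wald test, adjusted p = 8.78e-09). For otop1 the difference was 1.10 ± 0.25, or 2.15-fold (adjusted p = 2.77e-04). The second oc90 entry differed by 0.86 ± 0.49 and did not pass (adjusted p = 0.237).

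Starmaker was 0.35 ± 0.18 higher in the Mixture than in BaP, which did not pass (adjusted p = 0.195). Because the BaP libraries are those in which stm was found low, this difference is given as a description. For otomp the difference was 0.83 ± 0.35 (adjusted p = 0.0882) and for tecta 0.53 ± 0.34 (adjusted p = 0.307). The intron-retaining sparc entry differed by -0.65 ± 0.31 and did not pass (adjusted p = 0.142). Thus 2 of the 9 entries were called, both higher, where 16.4% of all entries tested were called and 8.33% were higher.

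**Figure D3:**
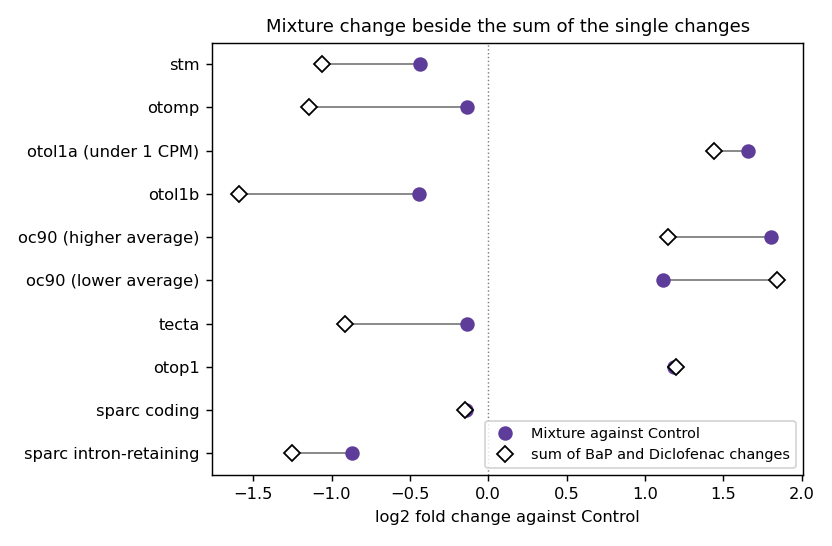
Log2 fold change of the Mixture against Control (filled circles) beside the sum of the BaP and Diclofenac log2 fold changes (open diamonds) for each otolith gene entry (rows). For stm, otomp, otol1b, tecta, intron-retaining sparc and the less abundant oc90 entry the Mixture lies nearer to 0 than the sum. For the more abundant oc90 entry it lies farther from 0, and for otop1 and coding sparc the symbols overlap.

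If both compounds acted additively on the log2 scale, the Mixture would equal the sum of the single changes. For stm the Mixture had -0.44 and the sum was -1.06, a departure of 0.62 ± 0.26. For otomp the Mixture had -0.13 and the sum was -1.15, a departure of 1.01 ± 0.49. For tecta the values were -0.13 with the Mixture and -0.92 for the sum, and for otol1b -0.44 with the Mixture and -1.59 for the sum. The intervals of these 2 departures, -0.15 to 1.71 and -0.48 to 2.78, included 0. The oc90 entries departed in opposite directions, the more abundant by 0.66 ± 0.57 and the other by -0.72 ± 0.69. For otop1 the Mixture had 1.18 and the sum was 1.20.

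In 7 of the 9 entries the Mixture lay above the sum, and over all entries tested 47.7% lay below it. Coding sparc, counted among the 7, departed by 0.0053, and by -0.0031 once fold changes were centred on their median. By the approximate Wald test of this interaction 0 of the 9 were called, where 0.0462% of all entries tested were called. The adjusted p was 0.914 for stm and 0.999 for otomp, the 2 entries with an unadjusted p under 0.05. The sum contains the BaP comparison that singled out stm, so its departure is a description. All 9 departures share the same libraries and are not independent of each other.

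**Figure D4:**
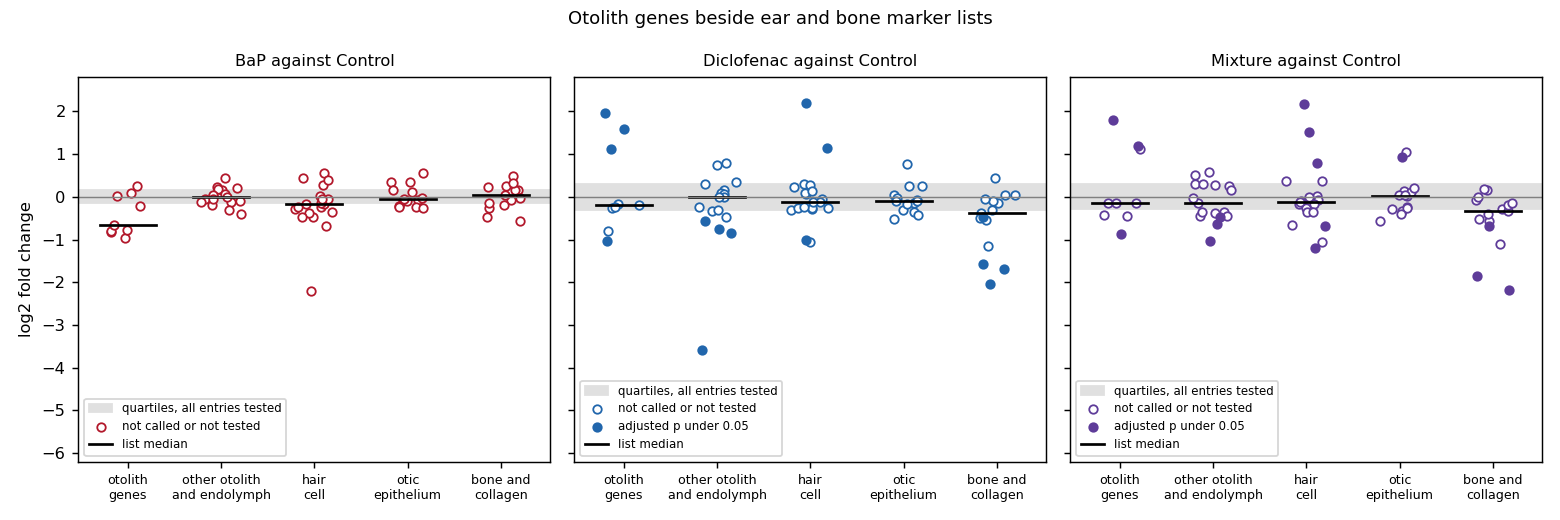
Log2 fold change of each entry averaging at least 1 CPM in the otolith genes and in 4 marker lists, for BaP, Diclofenac and Mixture, each against Control. Black lines are list medians, grey bands the quartiles of all entries tested, and filled points passed an adjusted p of 0.05 (no test is shown for BaP). With BaP the otolith median is -0.67, while the other medians lie between -0.17 and 0.05. The otolith genes were chosen around stm, which was selected on its BaP values, so this contrast is a description.

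Other genes of the ear were set beside the otolith genes. Of 21 further genes of otolith formation, tectorial matrix and endolymph transport, 20 were matched and 14 averaged at least 1 CPM, as 17 entries. Their median log2 change with BaP was -0.02, with a range of -0.40 to 0.43. The tectorial partner genes tectb and otog, at averages of 5.86 and 5.78 CPM, had -0.30 and 0.01 with BaP in the authors' deposited table. The lowest of the 17, otogl, averaged 1.30 CPM and had -0.40. These values lie closer to 0 than that of tecta, but the intervals overlap. They were -0.83 to 0.23 for tectb, -0.73 to 0.76 for otog and -1.32 to 0.52 for otogl, beside -1.32 to -0.01 for tecta.

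With Diclofenac 4 of the 17 entries fell and 0 rose, where 7.64% of all entries tested were called lower and 8.52% higher. Among the 4, a bmp2b entry averaging 1.21 CPM had -3.59, while the more abundant bmp2b entry, at 9.12 CPM, had 0.17. For hsp90b1, the called entry averaged 274 CPM and had -0.85, while the second, at 10.3 CPM, had 0.74. With the Mixture 3 fell and 0 rose, where the shares were 6.67% lower and 8.12% higher. These 3 were ca2, slc12a2 and sparcl1, and sparcl1 had -0.01 with Diclofenac. The bmp2b and hsp90b1 entries called with Diclofenac had 0.29 and -0.15 with the Mixture and did not pass there. The carbonic anhydrase gene ca2, whose product supplies bicarbonate, fell with Diclofenac and with the Mixture, at log2 values of -0.76 and -0.63 in the authors' deposited table (likelihood ratio test, adjusted p = 6.61e-07 and 7.46e-05). The gene of the sodium, potassium and chloride cotransporter slc12a2, which helps to form endolymph, fell likewise in the authors' deposited table, at -0.56 and -0.48 (adjusted p = 0.00198 and 0.0131). Both genes are also expressed in many tissues outside the ear. The otolith channel gene otop1 thus changed in the opposite direction to ca2 and slc12a2 with both of these treatments. Related genes of the list went either way in the authors' deposited table. With Diclofenac and with the Mixture, atp2b1a had 0.31 and 0.29, and the coding cahz entry 0.35 and 0.29. The gene ca15a had -0.47 and -0.46, and ca4a -0.33 and -0.39. None of these passed. The contrast with otop1 is therefore limited to ca2 and slc12a2.

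Markers of hair cells, the sensory cells over which otoliths lie, had 25 of 27 genes matched and 18 averaging at least 1 CPM, as 19 entries. Their median with BaP was -0.17, with a range of -2.22 to 0.57. Of the 19 entries 14 lay below 0, beside 47.3% of all entries tested. The lowest was a pvalb9 entry, while the other pvalb9 entry had -0.04. The hair cell genes myo7aa, otofb and pcdh15a had -0.05, -0.69 and -0.14 with BaP in the authors' deposited table. On the other side of 0, otofa had 0.28, tmc1 0.57, tmie 0.43 and cacna1da 0.39. With Diclofenac 2 of the 19 rose and 1 fell, where 16.2% of all entries tested were called, and with the Mixture 3 rose and 2 fell, where 14.8% were called. The scaffold gene ush1c rose by 2.20 with Diclofenac and by 2.17 with the Mixture in the authors' deposited table (likelihood ratio test, adjusted p = 4.49e-04 and 6.22e-04), and the hair cell regulator gene atoh1a by 1.14 and 1.51 (adjusted p = 0.00676 and 1.68e-04). Both are expressed outside the ear as well, ush1c in the intestine and retina and atoh1a in the hindbrain. The calcium-binding protein gene s100t, a marker of hair cells, fell, at -1.01 with Diclofenac and -0.69 with the Mixture in the authors' deposited table (likelihood ratio test, adjusted p = 5.31e-04 and 0.0279). The hair cell gene pou4f3 fell with the Mixture, at -1.21 (adjusted p = 0.0368). With Diclofenac it had -1.07 and did not pass (adjusted p = 0.0711). A pvalb9 entry was called higher with the Mixture, at 0.79, while the other pvalb9 entry had -1.06 and did not pass.

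Regulators of the otic epithelium, which secretes the otolith matrix, were all matched, 13 genes as 14 entries averaging at least 1 CPM. Their median was -0.06 with BaP, -0.09 with Diclofenac and 0.03 with the Mixture. As the RNA came from the whole body, these values are not specific to the ear. With BaP the 14 entries ranged from -0.25 to 0.56, with 9 below 0, beside 47.3% of all entries tested. The lowest was the hmx2 entry, and the highest was the dlx3b entry, both from the authors' deposited table. With Diclofenac 0 of the 14 were called by the likelihood ratio test, where 16.2% of all entries tested were called, and 1 had an unadjusted p under 0.05. With the Mixture dlx3b rose, by 0.93 in the authors' deposited table (adjusted p = 3.70e-06). The part of the otic epithelium or of hair cells in the otolith gene values was not tested.

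Bone and collagen genes, markers of the main other sources of sparc, were matched in full, with 12 of 15 genes averaging at least 1 CPM, as 15 entries. Their median was 0.05 with BaP, -0.38 with Diclofenac and -0.33 with the Mixture. With Diclofenac 4 of the 15 fell and 0 rose, beside 7.64% lower and 8.52% higher over all entries tested. With the Mixture 3 fell and 0 rose, beside 6.67% lower and 8.12% higher. The type X collagen gene col10a1a had -2.04 with Diclofenac and -2.17 with the Mixture in the authors' deposited table (likelihood ratio test, adjusted p = 0.00566 and 0.00332). The osteoblast gene entpd5a had -1.69 and -1.84 (adjusted p = 0.00262 and 9.24e-04). Coding sparc, at -0.16 and -0.14, stayed nearer to 0 than these, as did the osteoblast regulator gene sp7, at -0.49 and -0.33, all in the authors' deposited table. Other genes of the list lay near 0 too: col1a1b at -0.10 and 0.003, col5a1 at 0.04 and -0.07, coding postnb at 0.04 and 0.17. Of the 15 entries 12 lay below 0 with each of these treatments, beside 50.5% and 48.3% of all entries tested. Neither coding sparc nor sp7 passed with Diclofenac or with the Mixture.

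The entries most like stm were sought by the distance between their 3 log2 fold changes and those of stm, over 3 comparisons that share the Control libraries. Among the nearest were CABZ01053323.1, mb, s1pr3a and mrtfaa, at distances of 0.077 to 0.152 log2 units. Of these mb, the myoglobin gene, had the highest average, 39.3 CPM, with -0.81 with BaP, -0.15 with Diclofenac and -0.47 with the Mixture in the authors' deposited table. The other named entries, CABZ01053323.1, s1pr3a and mrtfaa, averaged 2.10 to 3.44 CPM. With 3 values per entry this likeness is a description of these comparisons.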

How the data were processed

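Samples were grouped from their labels. All values come from a table of comparisons by the authors, which holds no values per library. Per the submitters' processing notes, kallisto, edgeR and limma were used with build GRCz11; versions and filters: not given in the sources used here. Per the file headers, the log2 fold changes are of a treatment over Control. Base 2 was assumed, since the deposited average log2 CPM values, raised from that base, summed to 1.01e+06. Per the file headers, the likelihood ratio is a test score. The deposited p-value equalled its chi-square tail on 1 degree of freedom, to a relative difference of 9.86e-13 at most, and is thus unadjusted.

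Deposited p-values were adjusted by Benjamini-Hochberg over the 21622 entries averaging at least 1 CPM, two-sided. An SE against Control was the fold change over the root of its likelihood ratio. Differences took each entry's largest implied variance (largest over smallest 1.00 to 1.28 in the members), doubled for the interaction, with a Wald test on 1 degree of freedom. Equal spread in all groups was assumed. Members and lists were chosen with earlier results of these data known, and lists were matched by symbol without case. Named genes were all members, up to 3 called genes per list and comparison, and the 5 entries nearest to stm (1 of them is not reported here); tectb, otog, myo7aa, otofb, pcdh15a, hmx2 and sp7 were named after their values were seen. Python 3.11.15, SciPy 1.17.1 and pandas 2.3.3 were used.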

Additional observations from a re-analysis of the deposited data

How the results depend on the processing

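No paired analysis was possible because the deposited table combines the replicates, and for the same reason no library could be left out. Of the 9 otolith entries the count called with Diclofenac was 4, and it was 2 (oc90 and otop1) with at least 5 CPM, with 1 entry per symbol and with the Benjamini-Yekutieli adjustment. The first pair of settings drops the less abundant oc90 entry and the intron-retaining sparc entry. Under Benjamini-Yekutieli neither passed (adjusted p = 0.0761 and 0.0831), nor did that sparc entry with the Mixture (adjusted p = 0.319). The counts with the Mixture (3, or 2 to 3 over the alternatives), in the Mixture against BaP (2), against Diclofenac (0) and in the interaction (0) were within 1.5 times the reported count under no abundance filter, at least 5 CPM, median centring, protein-coding entries alone, 1 entry per symbol, Benjamini-Yekutieli, the median variance and at least 2-fold. The median variance was applied only to the Mixture against BaP, against Diclofenac and in the interaction, not to comparisons with Control. The more abundant oc90 entry and otop1 passed under all settings applied with Diclofenac, with the Mixture and in the Mixture against BaP. Starmaker in the Mixture minus Diclofenac passed under none of them, at -0.19 after centring and -0.17 otherwise. Centring, chosen for BaP after seeing the data, gave stm -0.80 there. It turned 2 differences of coding sparc that were near 0, to -0.0056 for the Mixture minus Diclofenac and -0.0031 for the interaction. The median variance called 122 entries over the whole table against 79 in the Mixture minus Diclofenac, and 30 against 10 in the interaction.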

Other observations

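Among the genes set beside the otolith genes, sparcl1 and dlx3b differed between the Mixture and Diclofenac alone. They were 1 of 17 entries of otolith formation and 1 of 14 of the otic epithelium. In the hair cell and bone lists 0 were called, and over all entries tested 0.365%. The gene sparcl1 encodes a relative of osteonectin, and its protein-coding entry averaged 21.5 CPM. Its log2 fold changes were -1.03 with the Mixture, -0.12 with BaP and -0.01 with Diclofenac in the authors' deposited table. The Mixture differed from Diclofenac by -1.01 ± 0.21 (approximate Wald test, adjusted p = 8.58e-04) and from BaP by -0.90 ± 0.21 (adjusted p = 2.58e-04). The interaction for sparcl1 did not pass (adjusted p = 0.527).

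The homeobox gene dlx3b, a regulator of the otic placode that is also expressed in skin and fins, averaged 51.1 CPM. It had 0.93 with the Mixture, 0.56 with BaP and 0.25 with Diclofenac in the authors' deposited table. The Mixture differed from Diclofenac by 0.68 ± 0.17 (approximate Wald test, adjusted p = 0.0301). From BaP it differed by 0.37 ± 0.17, which did not pass (adjusted p = 0.139). The interaction for dlx3b, 0.12 ± 0.24, did not pass either (adjusted p = 0.999). Coding sparc, the relative of sparcl1 among the otolith genes, had 0.02 ± 0.17 in the same difference (adjusted p = 0.992).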
